A study of Sus scrofa with 6 samples.

Results

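The genes examined here are those of fatty acid oxidation together with the peroxisome proliferator-activated receptors (PPARs) and genes they are known to control, measured by RNA sequencing in piglet jejunum. They were listed by gene symbol, and 37 of 39 listed symbols matched a row of the deposited table of 24358 genes. These comprised 23 genes of the mitochondrial pathway, 7 of the peroxisomal pathway and 7 PPAR factors, coactivators and targets. SLC22A5 and ACAD8 were not analysed here. The tissue came from weaned Large White x Landrace piglets, all labelled healthy. The transport group comprised 3 libraries from piglets that had been moved, and the control group 3 libraries from piglets that had not. The title of the study describes the journey as short. Its length, the interval before sampling and the age and sex of the piglets are not stated in the labels. Nor do the labels say whether each library is a different animal, so the p-values reflect the spread between these libraries, part of which may be technical.

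Long-chain fatty acids enter mitochondria as carnitine esters. CPT1 enzymes make the ester on the outer membrane, the carrier encoded by SLC25A20 exchanges it across the inner membrane, and CPT2 turns it back into acyl-CoA. Each round of β-oxidation then uses an acyl-CoA dehydrogenase, a hydratase, a 3-hydroxyacyl-CoA dehydrogenase and a thiolase, and electrons from the first step pass through the electron transfer flavoprotein. Peroxisomes shorten very long and branched chains by a parallel route. PPARα, PPARδ and PPARγ are nuclear receptors that bind fatty acids and raise transcription of many of these genes, and in the small intestine they respond to dietary fat and to fasting.

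Libraries held 48208451 to 53739246 counts, and the members had 159 to 19708 counts per library. Transport 3 stood apart: its median correlation of log2 CPM (counts scaled to library size) with the other libraries was 0.818, against 0.888 to 0.930 for the other 5. It also went against the tissue label. FABP6, the ileal bile acid binding protein, had an FPKM (fragments per kilobase, scaled to library size) of 6836 in transport 3 and of 2.83 to 13.8 in the other 5 libraries. GATA4, a transcription factor of the proximal small intestine, had 0.906 FPKM in transport 3 and 44.4 to 59.5 in the others, and the proximal factor ONECUT2 was listed at 0 in transport 3. The B cell marker MS4A1 had 164 FPKM in transport 3 and at most 0.691 elsewhere. Control 2 was low in smooth muscle RNA, with 8.56 FPKM of MYH11 against 200 to 643 in the other libraries. Results are therefore also given without transport 3.

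The question was which oxidation and PPAR genes differ in the jejunum after transport. The last thiolase of the mitochondrial spiral, ACAA2, and the acylcarnitine carrier, SLC25A20, were lower in all 3 transport libraries than in any control. The lipoprotein lipase inhibitor ANGPTL4 and the mitochondrial carrier UCP2 were higher in all 3. Mitochondrial members were mostly slightly lower, with 20 of 23 below 0 on the log2 fold change scale and a median of -0.20, beside 43.1% of all 12012 genes tested and a median of 0.07. Without transport 3, 16 of the 23 were below 0, with a median of -0.10 beside 0.0046 over all genes. Peroxisomal members were evenly divided (4 higher and 3 lower, median 0.00), and PPAR factors and targets went both ways (5 higher and 2 lower, median 0.15). The peroxisomal median was not stable, at 0.32 without transport 3 and -0.36 without transport 2. For PPAR factors and targets the median was 0.40 without transport 3. All 37 members passed the filter on low values.

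No member passed edgeR's quasi-likelihood test with Benjamini-Hochberg adjustment over all genes, in which 0.0167% of the genes tested were called. Adjusted p-values of the members ran from 0.890 to 0.999. At an unadjusted p under 0.05 there were 2 members higher and 2 lower, or 5.41% of the members in each direction, where 3.52% of all genes were higher and 1.61% lower. DESeq2 called ACAA2 (adjusted p = 0.0179) and SLC25A20 (adjusted p = 0.0373) as lower and no member as higher, where it called 0.191% of all genes lower and 0.225% higher. In limma on log2(FPKM + 1) no member was called. Separate groups, with every transport library below every control, were found for 6 members (16.2%) against 4.19% of all genes. Separation in the other direction was found for 2 members (5.41%) against 6.93% of all genes, a share near the background. Without transport 3 the count of separated lower members was again 6, where 8.62% of all genes separated in that direction, and 7 members were separated as higher, where 11.1% of all genes did so.

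**Figure D1:**
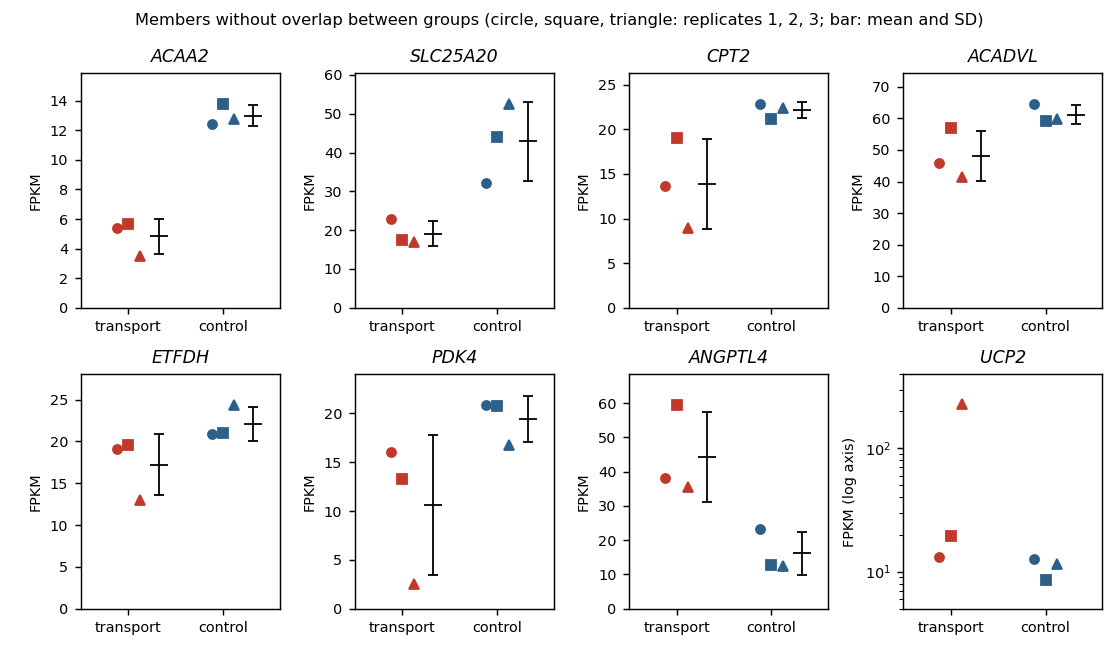
FPKM of the 8 members whose groups did not overlap, in transport (red, left) and control (blue, right) libraries; circles, squares and triangles are replicates 1, 2 and 3, and the bar is the mean with SD (not drawn for UCP2, whose axis is logarithmic). ACAA2 lay between 3.47 and 5.63 FPKM in transport libraries and between 12.4 and 13.8 in controls, and the UCP2 value of 229 was in transport 3.

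Mitochondrial import began with CPT1A, the gatekeeping acyltransferase of liver and gut, which was among the lowest members in level. It had 2.37, 2.83 and 3.08 FPKM in transports 1 to 3, against 3.29, 2.17 and 3.92 in controls 1 to 3. The groups overlapped, and the log2 fold change in edgeR was -0.23 (standard error 0.29). CPT1B, the muscle isoform, was listed at 8.17, 3.71 and 11.9 FPKM in transport libraries, against 8.70, 4.44 and 10.2 in controls. CPT1B overlaps CHKB on the same strand, so its reads are uncertain.

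SLC25A20, on the minus strand of chromosome 13 at 31523823 to 31553286, had 22.9, 17.5 and 16.9 FPKM in transports 1 to 3. In controls 1 to 3 it had 32.1, 44.0 and 52.5 FPKM. The groups did not overlap, and the transport mean was 44.6% of the control mean (19.1 ± 3.30 against 42.9 ± 10.3, SD, n = 3 each). Its log2 fold change was -1.22 (standard error 0.28) and an unadjusted p of 0.00367 in edgeR. It was -1.11 without transport 3. Coordinates are those of the deposited table, and no source used here names its genome build.

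CPT2, which regenerates acyl-CoA in the matrix, had 13.6, 19.1 and 8.92 FPKM in transport libraries, against 22.9, 21.2 and 22.4 in controls. Here too the groups were separate, narrowly in transport 2. The log2 fold change was -0.71 (standard error 0.36), and -0.46 without transport 3. Of CPT1A, SLC25A20 and CPT2, CPT1A had the log2 fold change smallest in size, and that of CPT1B was -0.07 (standard error 0.45). Whether the steps of the carnitine shuttle differ from each other was not tested.

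Among the acyl-CoA dehydrogenases, ACADVL, the very long-chain enzyme, had 45.8, 56.9 and 41.5 FPKM in transport libraries, against 64.6, 59.2 and 59.7 in controls. The groups were just separate, with a log2 fold change of -0.40 and a standard error of 0.27. ACADVL overlaps DVL2 and a microRNA gene on the other strand, and no source used here says whether strand was used in counting. ACADM, the medium-chain enzyme, had 15.1, 41.0 and 37.4 FPKM in transport libraries, against 28.4, 33.9 and 41.1 in controls. Transport 1 alone was low, at about 2092 counts against 3814 to 5814 in the other libraries, and without it the log2 fold change of -0.20 turned to 0.13.

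The short-chain enzyme ACADS averaged 33.4 ± 6.05 FPKM in transport libraries and 32.2 ± 1.41 in controls (SD, n = 3 each). The long-chain enzyme ACADL averaged 18.3 ± 5.03 in transport libraries and 19.0 ± 3.64 in controls. ACADSB, which acts on short branched chains from isoleucine, leaned upward, with 15.7, 27.1 and 7.89 FPKM in transport libraries against 12.0, 10.4 and 7.27 in controls, and the groups overlapped through transport 3. ACAD9, also an assembly factor of respiratory complex I, and ACAD10 and ACAD11 had log2 fold changes from -0.30 to -0.03, all smaller in size than their standard errors.

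Of the middle steps of the spiral, HADHA and HADHB encode the subunits of the mitochondrial trifunctional protein. They lie head to head on chromosome 3, HADHA on the plus strand from 112752617 to 112800061 and HADHB on the minus strand from 112704024 to 112753038, with 422 shared bases. HADHA had 48.4, 61.0 and 46.0 FPKM in transport libraries, against 55.8, 56.4 and 55.0 in controls, with a log2 fold change of -0.16 and a standard error of 0.28. HADHB had 24.2, 51.1 and 36.7 FPKM in transport libraries, against 36.0, 35.6 and 55.8 in controls, with a log2 fold change of -0.22 and a standard error of 0.36. Both genes overlapped between the groups, and the ratio of HADHA to HADHB in FPKM ran from 1.19 to 1.997 in transport libraries and from 0.986 to 1.58 in controls. The short-chain hydratase ECHS1 averaged 34.2 ± 9.64 FPKM in transport libraries and 42.6 ± 2.76 in controls, and the 3-hydroxyacyl-CoA dehydrogenase HADH 32.2 ± 13.5 in transport libraries and 41.4 ± 4.35 in controls (SD, n = 3 each). The log2 fold change was -0.36 (standard error 0.33) for ECHS1 and -0.40 (standard error 0.42) for HADH. In both genes transport 3 was the lowest library, at 23.3 FPKM for ECHS1 and 17.4 for HADH. Without that library the log2 fold change was -0.14 for ECHS1 and -0.09 for HADH. ECHS1 overlaps FUOM on the same strand.

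Unsaturated chains need further enzymes. The dienoyl-CoA reductase DECR1 had 9.14, 21.3 and 2.98 FPKM in transport libraries, against 10.2, 6.44 and 7.53 in controls. Transports 2 and 3 were the highest and the lowest of the 6 libraries, and the log2 fold change of 0.47 had a standard error of 0.69. It turned to -0.50 without transport 2 and to -0.0096 with the replicate block, and was 0.91 without transport 3. The isomerase ECI2, found in mitochondria and peroxisomes, averaged 26.2 ± 11.7 in transport libraries and 38.0 ± 5.66 in controls. ECI1, the mitochondrial isomerase, averaged 30.2 ± 12.4 in transport libraries and 32.8 ± 10.6 in controls (SD, n = 3 each). ECI1 overlaps RNPS1 on the same strand.

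ACAA2, the thiolase that releases acetyl-CoA in the matrix, had 5.42, 5.63 and 3.47 FPKM in transports 1 to 3. In controls 1 to 3 it had 12.4, 13.8 and 12.8 FPKM, from 3167, 3644 and 3437 counts, against 1434, 1520 and 990 in transport libraries. The groups were far apart beside the spread within each, and the transport mean was 37.3% of the control mean. The log2 fold change was -1.47 (standard error 0.31) and an unadjusted p of 0.00234 in edgeR. It was -1.26 without transport 3, and it ran from -1.65 to -1.16 over the 14 alternatives tried. The gene lies on the minus strand of chromosome 1 at 99280800 to 99310759 and shares no bases with another listed gene. The ratio of HADHB, which also has thiolase activity, to ACAA2 was 4.47, 9.08 and 10.6 in transport libraries, against 2.90, 2.58 and 4.37 in controls, a ratio chosen after the values were seen. ACAT1, the acetoacetyl-CoA thiolase, averaged 37.7 ± 6.98 FPKM in transport libraries and 38.1 ± 2.15 in controls (SD, n = 3 each).

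ETFDH, which hands electrons from the flavoprotein to ubiquinone, had 19.1, 19.6 and 13.0 FPKM in transport libraries, against 20.9, 21.0 and 24.4 in controls. The groups were just separate, with a log2 fold change of -0.40, a standard error of 0.29 and -0.22 without transport 3. ETFDH overlaps PPID and C4orf46 on the other strand. The flavoprotein subunit genes ETFA and ETFB overlapped between the groups. ETFB averaged 101 ± 43.7 FPKM in transport libraries and 111 ± 11.5 in controls, and ETFA 16.99 ± 8.45 in transport libraries and 16.97 ± 4.47 in controls (SD, n = 3 each). Transport 1 was lowest for ETFA at 8.16 FPKM and transport 3 lowest for ETFB at 52.9, so the 2 subunits did not follow each other between libraries. The FPKM of the 23 mitochondrial members summed to 587, 768 and 456 in transports 1 to 3, against 712, 691 and 723 in controls 1 to 3.

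Peroxisomal members showed no difference beyond the spread between libraries. EHHADH, the bifunctional enzyme, had 16.9, 39.7 and 11.7 FPKM in transport libraries, against 28.0, 20.3 and 18.9 in controls, with a log2 fold change of 0.00 and a standard error of 0.53. HSD17B4, the other multifunctional enzyme, had 10.2, 28.7 and 15.1 in transport libraries, against 18.8, 12.3 and 13.4 in controls. Its log2 fold change was 0.25 (standard error 0.45). The thiolase ACAA1 had 43.6, 48.1 and 17.7 FPKM in transport libraries, against 44.1, 38.5 and 22.4 in controls, with a log2 fold change of 0.01 and a standard error of 0.50.

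In EHHADH and HSD17B4 transport 2 was the highest of the 6 libraries. Of the branched-chain oxidases, ACOX2 averaged 10.2 ± 5.17 FPKM in transport libraries and 9.59 ± 1.76 in controls, and ACOX3 3.06 ± 0.406 in transport libraries and 3.97 ± 1.54 in controls. CRAT, carnitine acetyltransferase, averaged 17.4 ± 8.57 in transport libraries and 25.9 ± 7.64 in controls, and the thioesterase ACOT8 18.2 ± 7.14 in transport libraries and 20.4 ± 3.95 in controls (SD, n = 3 each).

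Of the receptors, PPARA had 5.64, 4.10 and 2.98 FPKM in transport libraries, against 3.03, 3.90 and 5.04 in controls. The 2 ranges nearly coincided, and the log2 fold change was 0.05 (standard error 0.40). PPARD averaged 11.6 ± 2.53 in transport libraries and 11.7 ± 1.50 in controls (SD, n = 3 each). PPARG, best known from fat cells and colon epithelium, had 10.7, 26.1 and 1.15 FPKM in transport libraries, against 6.80, 1.41 and 4.06 in controls.

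Transports 1 and 2 exceeded every control for PPARG and transport 3 lay below every control. Its log2 fold change was 1.65 (standard error 1.07), 0.48 without transport 2, 2.18 without transport 3 and 0.82 with the replicate number as a block. The fat cell list, 10 genes in the table, summed to 39.1, 103 and 51.3 FPKM in transport libraries, against 99.96, 71.6 and 51.7 in controls, and of its 6 tested genes 1 was higher and 5 lower, none without overlap. Within it ADIPOQ had at most 0.0227 FPKM in any library and LEP had 0 counts in all 6, PLIN1 had 1.78 FPKM in transport 3 and at most 0.107 elsewhere, and CIDEC had 3.60 to 43.9. The part of this list in the PPARG values was not tested. The coactivator PPARGC1A had 3.09, 4.12 and 2.03 FPKM in transport libraries, against 4.61, 1.83 and 1.60 in controls, with a log2 fold change of 0.15 and a standard error of 0.54.

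The 3 target genes differed in direction. ANGPTL4 had 38.1, 59.5 and 35.5 FPKM in transports 1 to 3, against 23.4, 12.7 and 12.4 in controls 1 to 3. The groups did not overlap, and the transport mean was 274% of the control mean. The log2 fold change was 1.40 (standard error 0.41) and an unadjusted p of 0.0111 in edgeR, and 1.57 without transport 3. ANGPTL4 lies on the minus strand of chromosome 2 at 70905765 to 70913026 and shares no bases with another listed gene.

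PDK4, the kinase that shuts off pyruvate dehydrogenase when fat is burned, had 16.1, 13.2 and 2.51 FPKM in transport libraries, against 20.9, 20.7 and 16.7 in controls. The groups were separate by a narrow margin apart from transport 3. The log2 fold change was -0.90 (standard error 0.65), and -0.45 without transport 3. ANGPTL4 and PDK4, which are both induced by fasting in many tissues, thus had log2 fold changes of opposite sign. For PDK4 the unadjusted p in edgeR was 0.210.

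UCP2 had 13.2, 19.4 and 229 FPKM in transport libraries, against 12.6, 8.59 and 11.5 in controls. Transport 1 exceeded control 1 by less than 1 FPKM, and transport 3 set the mean. The log2 fold change was 2.83 (standard error 1.04) and an unadjusted p of 0.0300, 0.57 without transport 3 and 1.68 (unadjusted p = 0.109) with the replicate block in edgeR. The B and plasma cell list, 12 genes in the table, summed to 172, 147 and 1067 FPKM in transports 1 to 3, against 42.1, 129 and 317 in controls, and the ileal list to 257, 284 and 7306, against 389, 462 and 279. Most of the ileal sum in transport 3 came from FABP6. The part of these lists in the UCP2 value was not tested. The gene lies on the minus strand of chromosome 9 at 8358559 to 8364552.

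**Figure D2:**
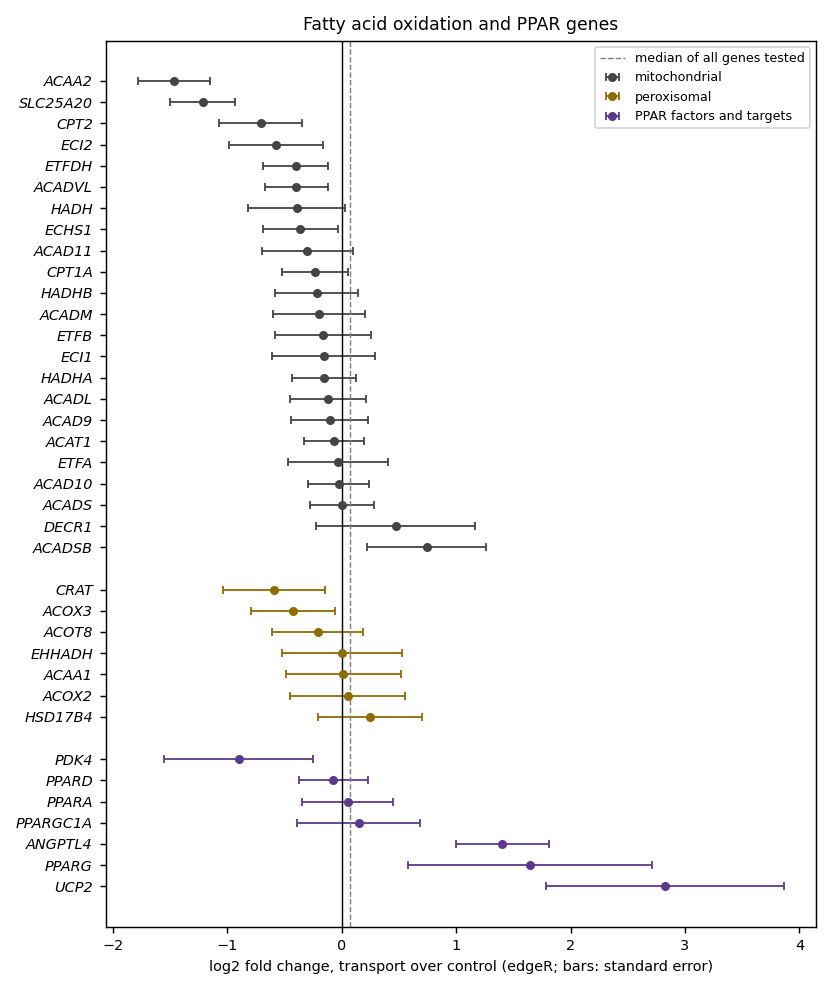
Log2 fold change of each member, transport over control, from edgeR, with its standard error; colours mark the mitochondrial, peroxisomal and PPAR members, and the dashed line is the median of all genes tested. ACAA2 and SLC25A20 are lowest at -1.47 and -1.22, and UCP2 is highest at 2.83 (standard error 1.04).

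The members varied more among transport libraries than among controls. The SD of log2 CPM was larger in the transport group for 32 of 37 members (86.5%) and for 73.9% of all genes tested. The median SD of the mitochondrial members was 0.59 in transport libraries and 0.20 in controls, beside 0.55 and 0.28 over all genes. Transport 3 was the lowest of the 6 libraries for 23 members (62.2%), beside 22.9% of all genes, and the highest for 2 (5.41%), beside 39.96%. Transport 2 was the highest for 16 (43.2%), beside 15.8%, and the lowest for 0 of the 37, beside 21.7%.

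**Figure D3:**
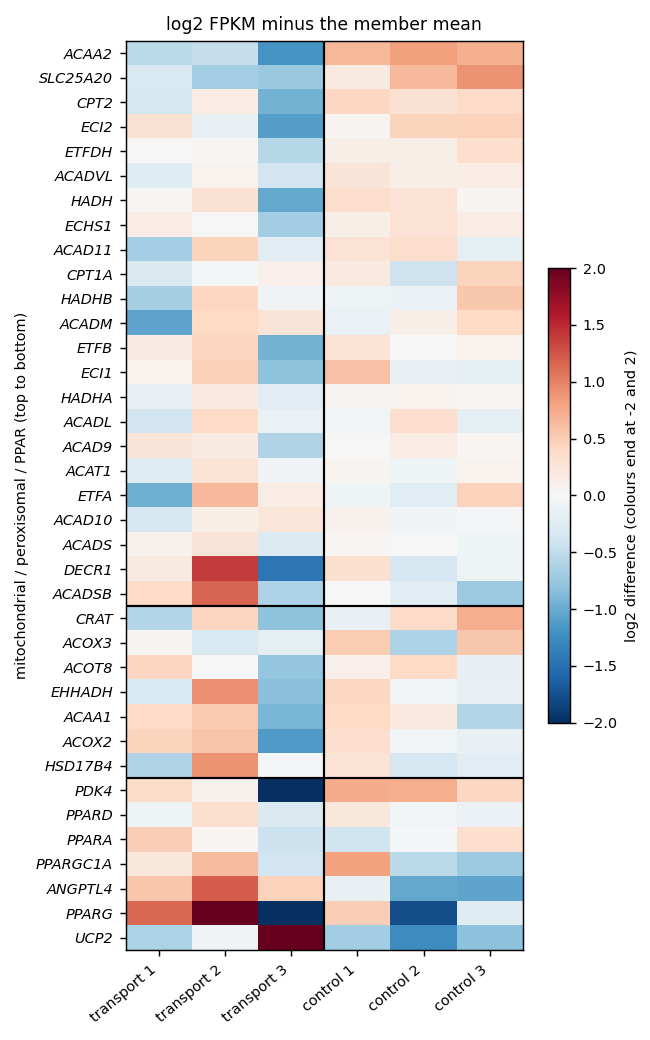
Log2 FPKM of each member minus its mean over the 6 libraries, with transports 1 to 3 left of controls 1 to 3; horizontal lines separate mitochondrial, peroxisomal and PPAR members. The column of transport 3 is mostly blue (low), with UCP2 as the deep red exception, and that of transport 2 mostly red, while ACAA2 is blue in all 3 transport libraries and red in all 3 controls.

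Marker lists of other cell types and gut positions were set beside these values as scores, each an average of log2 CPM over the tested genes of a list, centred over the 6 libraries. Mitochondrial members scored -0.21, 0.34 and -0.65 in transports 1 to 3, against 0.24, 0.19 and 0.09 in controls, and peroxisomal members -0.04, 0.52 and -0.84, against 0.34, 0.08 and -0.06. Enterocyte genes, 19 of them tested, scored -0.53, 0.52 and -1.12 in transport libraries, against 0.42, 0.60 and 0.12 in controls. Their FPKM summed to 4491, 6770 and 2753 in transport libraries, against 9451, 10792 and 8048 in controls. FABP1 and RBP2, also listed as PPAR targets, weighed heavily in these sums. They had 2803 and 2515 FPKM in control 1, against 962 and 979 in transport 1. In the scores, where each gene counts alike, transport 2 lay within the range of the controls. Of the 19 genes 6 were higher and 13 lower. Without overlap 5 were lower and 1 higher, where 4.19% of all genes were lower and 6.93% higher in that way. FABP1, RBP2 and FABP2, all also listed as PPAR targets, were among the lower genes without overlap. In bulk tissue, fewer enterocytes and less RNA per enterocyte cannot be told apart. Whether only some genes of the list differ was not tested. The T and NK cell list was higher in all 3 transport libraries, with 12 of 16 tested genes higher without overlap, beside 6.93% of all genes. It summed to 154, 241 and 216 FPKM in transport libraries, against 92.8, 94.9 and 90.6 in controls. The part of these lists in the member values was not tested.

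**Figure D4:**
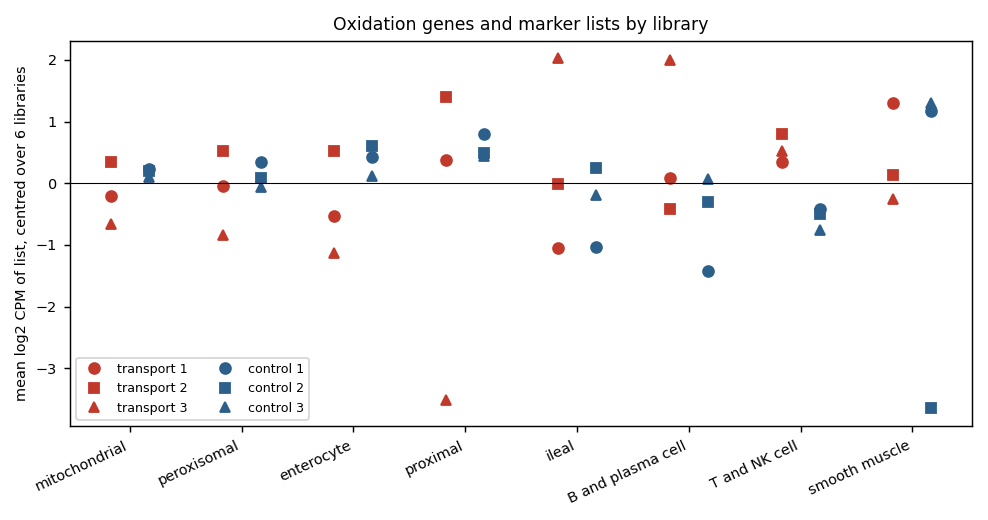
Mean log2 CPM of each gene list, centred over the 6 libraries, for transport (red, left) and control (blue, right) libraries; circles, squares and triangles are replicates 1, 2 and 3. Transport 3 is lowest for the mitochondrial (-0.65), peroxisomal (-0.84), enterocyte (-1.12) and proximal (-3.51) lists and highest for the ileal (2.03) and B cell (1.99) lists.

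The wider pathway was examined through further lists, in which no gene passed edgeR's adjusted threshold. Of 31 other oxidation genes tested, 14 were higher and 17 lower (median -0.03). The list includes acyl-CoA synthetases, thioesterases, carnitine genes and genes of branched-chain breakdown. Only 1 gene was higher without overlap and 0 were lower, where 6.93% of all genes were higher and 4.19% lower in that way. That gene was the acyl-CoA synthetase ACSF2, with 12.8, 17.2 and 16.8 FPKM in transport libraries against 9.78, 8.30 and 8.82 in controls, and it overlaps RSAD1 and CHAD. ACSL5, the synthetase of the enterocyte, averaged 35.9 ± 13.6 FPKM in transport libraries and 55.4 ± 10.2 in controls, and ACOT4, a thioesterase, 1.70 ± 0.492 in transport libraries and 4.40 ± 2.80 in controls, with overlap in both (SD, n = 3 each).

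Of 27 other peroxisomal genes tested, 12 were higher and 15 lower (median -0.04). The peroxisome division genes PEX11G and PEX11A had the smallest p-values, with 0.790 ± 0.336 FPKM in transport libraries and 1.89 ± 0.899 in controls for PEX11G, and 8.04 ± 1.83 in transport libraries and 13.1 ± 3.97 in controls for PEX11A. PEX10, a peroxisomal import ligase, averaged 3.13 ± 0.653 in transport libraries and 4.29 ± 1.12 in controls (SD, n = 3 each).

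Ketone body genes were split. BDH1, which interconverts acetoacetate and β-hydroxybutyrate, had 18.0, 25.4 and 20.4 FPKM in transport libraries, against 8.07, 12.8 and 12.8 in controls. The groups did not overlap, with a log2 fold change of 0.87, a standard error of 0.30 and an unadjusted p of 0.0237 in edgeR. The ketone body and monocarboxylate transporter SLC16A1 had 7.53, 8.17 and 3.94 FPKM in transport libraries, against 12.9, 9.24 and 12.5 in controls, also without overlap.

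Of 25 other PPAR targets tested, 8 were higher and 17 lower (68.0%, beside 43.1% of all genes, median -0.24). Without overlap 0 were higher and 6 lower, where 6.93% of all genes were higher and 4.19% lower in that way. FABP2, which binds fatty acids in enterocytes, had 48.2, 104 and 123 FPKM in transport libraries, against 523, 834 and 329 in controls. FABP1, the liver-type protein, had 962, 1098 and 129 FPKM in transport libraries, against 2803, 3130 and 1870 in controls. For the vitamin A carrier RBP2 the values were 979, 932 and 104 FPKM in transport libraries, against 2515, 2737 and 2020 in controls. These 3 genes also belong to the enterocyte list. DESeq2 called FABP2 (adjusted p = 0.00039). The apolipoprotein gene APOC3 averaged 326 ± 233 FPKM in transport libraries and 2504 ± 1349 in controls. The lipid droplet protein PLIN2, induced by fatty acids in many tissues, averaged 6.02 ± 3.52 in transport libraries and 10.4 ± 5.03 in controls, with overlap between the groups (SD, n = 3 each).

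Among PPAR partners and coregulators, 18 of 27 tested genes were higher and 9 lower (median 0.20). Groups did not overlap for 4 higher genes and 1 lower gene, where 6.93% of all genes were higher and 4.19% lower in that way. Transport 3 was the highest library for all 4 (RXRB, NCOA3, SIRT1 and NRIP1), and the list scored -0.02, -0.01 and 0.24 in transports 1 to 3, against -0.02, -0.11 and -0.08 in controls. The deacetylase SIRT1 had 5.59, 4.40 and 10.1 FPKM in transport libraries, against 3.73, 3.96 and 3.46 in controls. The coactivator NCOA3 had 2.25, 2.44 and 20.9 FPKM in transport libraries, against 2.13, 1.58 and 2.07 in controls, its mean set by transport 3. PRKAB2, a subunit of the energy sensor AMPK, averaged 7.13 ± 3.22 in transport libraries and 4.06 ± 0.833 in controls, with overlap (SD, n = 3 each). The PPAR partner RXRA had 29.1, 17.4 and 6.75 FPKM in transport libraries, against 7.34, 17.5 and 19.2 in controls, and HNF4A, a master factor of the enterocyte, 70.1, 117 and 32.7, against 79.9, 67.0 and 87.3. Both overlapped between the groups.

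**Figure D5:**
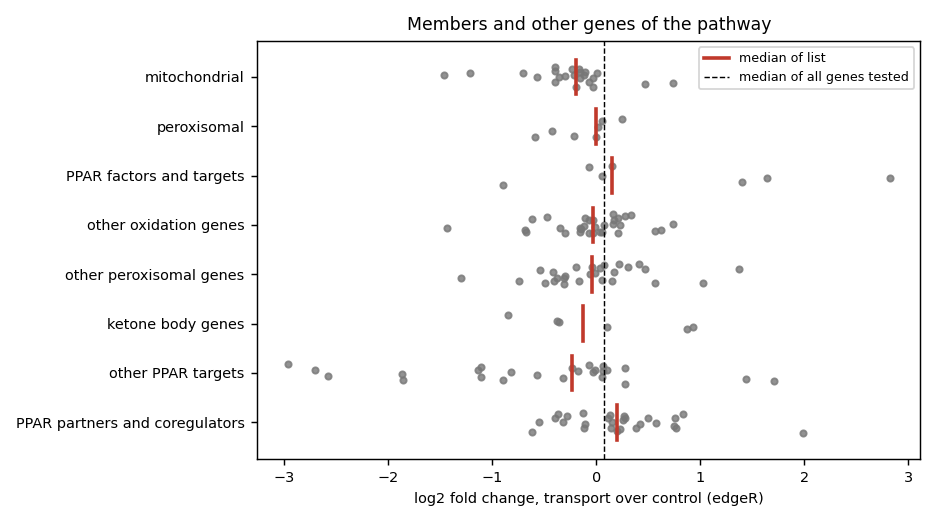
Log2 fold change, transport over control, from edgeR for each tested gene (grey points) of the member groups and of the further lists, with the median of each list (red bar) and of all genes tested (dashed line, 0.07). The medians run from -0.24 for other PPAR targets to 0.20 for PPAR partners and coregulators, and the lowest points among the other PPAR targets are APOC3 at -2.97 and FABP2 at -2.71.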

How the data were processed

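RNA sequencing of jejunum was deposited as 1 table with a count and an FPKM per gene and library. Per the file headers, counts were deposited as whole numbers without normalization, and the authors scaled them to FPKM by transcript length and library size. A count of 0 is listed as 0.0001 FPKM. For the aligner, counting tool, strand setting and genome build, the entry is: not given in the sources used here. Columns were matched to the labels by group and replicate number.

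The 12012 genes that reached 1 FPKM in 3 or more of the 6 libraries were tested. The main test was edgeR's quasi-likelihood test (edgeR 4.0.16, R 4.3.3) on counts with TMM scaling, no covariate and Benjamini-Hochberg adjustment, called at an adjusted p under 0.05. Standard errors were derived from the F statistic. DESeq2 1.42.0 and limma 3.58.1, on log2(FPKM + 1) or with a pseudocount of 0.1, were alternatives, and all were tested on simulated counts. The simulated counts had a smaller spread between libraries than these data, and large fold changes. That check therefore does not show how the tools perform on these data. Log2 CPM used a prior count of 2. Genes were taken to overlap where their coordinates in the table did, as for 15 of the 37 members. Of these, ECHS1 and ECI1 overlap a gene on the same strand, and the rest overlap genes on the other strand only. With the strand setting unknown, reads of all these members may come in part from the overlapping genes.

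Members and lists were chosen with earlier results of these data known, so lists are described by counts and medians without a test. Values by library were given for a fixed set of members and for members with an unadjusted p under 0.05 or separate groups, and for the genes of smallest p in each further list plus a fixed few, of which some are not reported here. Across genes, deviations of same-numbered transport and control libraries from their group means had r = 0.217, 0.111 and 0.187, and those of differently numbered libraries -0.261 to 0.101. The labels do not say what the numbers stand for. That check cannot establish pairs, since deviations within a group cancel out and are not independent. The main test did not use the numbers, and the replicate block was an alternative.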

Additional observations from a re-analysis of the deposited data

How the results depend on the processing

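The count of genes called was 2 in edgeR, 50 with DESeq2, 1 with limma at either pseudocount, 1 without both control 2 and transport 3, and 0 to 3 with 1 library left out. It was 3 without transport 3 and 0 without any 1 of the other 5. With the replicate block it was 2, and no member was called, as in edgeR without the block. The count of members called was 0 in every setting except DESeq2, where it was 2. The median of the PPAR factors and targets ran from 0.025 to 0.83 with 1 library left out, the highest without control 1. That of the peroxisomal members ran from -0.36 without transport 2 to 0.32 without transport 3. The mitochondrial median was -0.52 without transport 2, -0.10 without transport 3 and -0.05 without both control 2 and transport 3, and 14 to 22 of the 23 had lower values over all settings. In counts of separate groups, an alternative added after seeing the data, 6 to 11 members were lower and 2 to 7 higher with 1 library left out. The 11 were found without transport 2 and the 7 without transport 3. Without both control 2 and transport 3, 8 members were lower and 7 higher, where 13.6% of all genes were lower and 13.9% higher. Over all genes the share with separate groups also moved, to between 5.69% and 11.4% lower and between 8.46% and 17.3% higher with 1 library left out, with 8.58% lower and 17.3% higher without transport 2.

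Of the 37 members, 17 kept their direction in all 14 settings, 13 of them lower, ACAA2, SLC25A20 and CPT2 included. The other 20 turned in at least 1 setting, among them DECR1 (0.47), at -0.50 without transport 2 and -0.0096 with the replicate block. ACAA1 was -0.0019 with DESeq2 or its size factors, -0.0094 and -0.012 with limma and -0.078 with the replicate block, and ran from -0.30 to 0.34 with 1 library left out. EHHADH was -0.011 with DESeq2 or its size factors, -0.14 and -0.15 with limma and -0.23 with the replicate block, and ran from -0.76 to 0.32. HADHA was 0.0094 without both control 2 and transport 3. With 1 library left out, ACADM ran from -0.54 to 0.13, HADHB from -0.60 to 0.015, HSD17B4 from -0.36 to 0.53, PPARA from -0.21 to 0.26 and PPARGC1A from -0.19 to 0.83. The cause was not tested. With 3 libraries a group, and 1 of them carrying ileal genes, differences of the size seen in most members could not be told from the spread between libraries.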
